A study of Mus musculus with 2 samples.

Results

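Internal exons of 21 to 50 bases were followed through long-read RNA libraries of the mouse adrenal gland. The set holds the 1003 annotated internal exons of this length that at least 40 reads in each library spanned, out of 10495 such exons before the read minimum and out of 19515 annotated internal exons of any length that passed the same minimum. The RNA came from female B6CASTF1/J mice aged 10 days, an F1 hybrid of C57BL/6J and CAST. They form 1 group of 2 replicates with no treatment, mutation or transgene, so the data describe the gland and hold no contrast between conditions. For replicate 1 the labels name the same animal throughout, whereas for replicate 2 the library text and the biosample text name different animals, so the labels do not settle whether the libraries came from 1 animal or 2, and the spread between them may be technical. The libraries held 593165 reads (replicate 1) and 772154 reads (replicate 2) outside the spike-ins. The reads spanning an exon of the set numbered 70 in replicate 1 and 92 in replicate 2 at the median, and 4138 and 2007 at most.

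Short internal exons are harder for the splicing machinery to define than exons of usual length, because the splice sites at their ends lie close together, and many depend on enhancer sequences and on regulatory RNA-binding proteins. Those of the shortest class, called microexons, are best known from neurons, where the serine-arginine repeat protein Srrm4 promotes their inclusion, and others are included in muscle. An exon whose length is a multiple of 3 can be left out of a coding sequence without shifting the reading frame downstream, whereas leaving out another length shifts it.

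A read was taken as spanning an exon when it belonged to a spliced model of the same gene that started before the exon and ended after it. The skip share is the percentage of spanning reads whose intron contained the whole exon. The other spanning reads were split into exact reads, which held the exon with both of its annotated splice sites, and altered reads, which used another splice site or retained a flanking intron. An exon was called rarely skipped with a mean skip share of the libraries below 10%, intermediate from 10 to 90% and mostly skipped above 90%. The exons described at length below were chosen by these skip shares and read numbers, so their classes are a description, and no test was made over exons.

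The sequences of 14 of the exons that the results turn on are given here because they show the size and content of the coding segment that a skipping read lacks, or, for Uqcrh, a coding exon at the lower limit of length. They were read 5′ to 3′ from the GENCODE M21 transcripts (build GRCm38, the assembly of mm10), with the exon in capitals and 12 bases of each neighbouring exon in lower case, so that no intron is shown.
Gnas exon of 45 bases, chr2:174336747-174336791, plus strand: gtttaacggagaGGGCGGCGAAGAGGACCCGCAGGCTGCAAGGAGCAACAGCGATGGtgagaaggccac
Acly exon of 30 bases, chr11:100503160-100503189, minus strand: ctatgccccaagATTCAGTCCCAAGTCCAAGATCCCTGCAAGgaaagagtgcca
Myl1 exon of 28 bases, chr1:66934246-66934273, minus strand: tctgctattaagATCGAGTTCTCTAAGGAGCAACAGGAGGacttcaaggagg
Myl1 exon of 25 bases, chr1:66934518-66934542, minus strand: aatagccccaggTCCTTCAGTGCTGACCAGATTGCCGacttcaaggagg
Ndrg2 exon of 42 bases, chr14:51911086-51911127, minus strand: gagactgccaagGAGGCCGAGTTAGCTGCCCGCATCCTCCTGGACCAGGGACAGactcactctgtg
Osbpl9 exon of 39 bases, chr4:109091661-109091699, minus strand: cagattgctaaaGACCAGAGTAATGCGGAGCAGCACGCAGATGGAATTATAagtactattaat
Tpd52l2 exon of 42 bases, chr2:181511574-181511615, plus strand: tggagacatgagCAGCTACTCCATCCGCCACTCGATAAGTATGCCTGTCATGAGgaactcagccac
Wbp1l exon of 48 bases, chr19:46606712-46606759, plus strand: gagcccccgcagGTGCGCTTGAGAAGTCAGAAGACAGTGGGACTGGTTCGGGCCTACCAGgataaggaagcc
Mark3 exon of 27 bases, chr12:111651958-111651984, plus strand: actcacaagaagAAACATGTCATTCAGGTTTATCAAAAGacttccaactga
Mark3 exon of 45 bases, chr12:111653390-111653434, plus strand: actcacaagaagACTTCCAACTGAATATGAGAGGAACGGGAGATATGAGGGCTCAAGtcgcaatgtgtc
Hmgn1 exon of 30 bases, chr16:96127432-96127461, minus strand: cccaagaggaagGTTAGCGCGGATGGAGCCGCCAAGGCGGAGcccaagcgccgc
Hmgn1 exon of 30 bases, chr16:96127311-96127340, minus strand: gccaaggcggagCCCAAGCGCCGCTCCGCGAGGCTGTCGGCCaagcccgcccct
Aplp2 exon of 36 bases, chr9:31156190-31156225, minus strand: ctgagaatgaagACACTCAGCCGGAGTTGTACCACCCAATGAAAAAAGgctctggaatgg
Uqcrh exon of 21 bases, chr4:116070737-116070757, minus strand: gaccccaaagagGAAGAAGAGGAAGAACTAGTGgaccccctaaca

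All 23 named exons inside coding sequence whose transcript gave a sequence lacked an in-frame stop codon. This follows from lying within an annotated coding sequence and is not a result of these data. The Myl1 exons of 28 and 25 bases joined the same downstream exon, which began acttcaaggagg, and the letters after the Mark3 exon of 27 bases were those at the start of the Mark3 exon of 45 bases. Likewise the 12 bases after the upstream Hmgn1 exon were the start of the downstream Hmgn1 exon.

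Most short exons were skipped in few or no reads. Of the 1003 exons, 863 (86.0%) were rarely skipped, against 94.5% of all 19515 internal exons. The 48 intermediate exons, in 39 genes, made up 4.79% of the set, against 1.81% of all internal exons. Mostly skipped exons numbered 92, or 9.17% of the set, against 3.68% of all. The median skip share was 0 in both libraries and the mean 11.5% in replicate 1 and 11.6% in replicate 2, against means of 4.74 and 4.76% over all internal exons. No skipping read at all was seen for 576 exons (57.4%), against 77.4% of all internal exons. A rarely skipped exon was not always used as annotated: 657 of the 863 had at least 90% exact reads, 151 had at least 90% altered reads, and 146 of these 151 lay inside a longer annotated exon. The exons with at least 90% exact reads made up 65.5% of the set, against 79.5% of all internal exons.

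**Figure D1:**
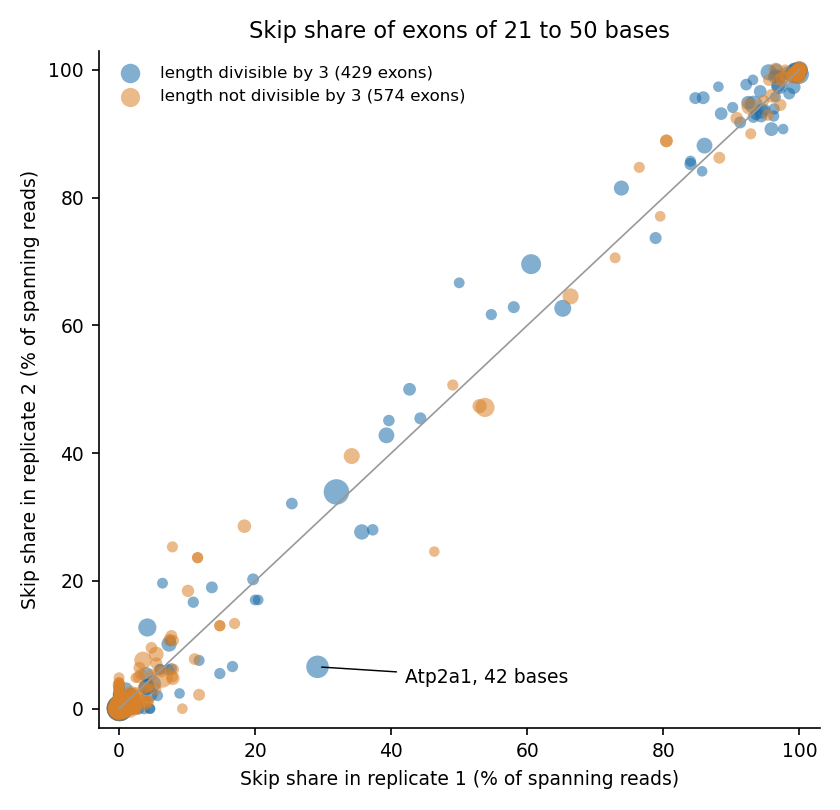
Skip share in replicate 1 (x axis, %) against replicate 2 (y axis, %) for the 1003 internal exons of 21 to 50 bases, with point colour giving divisibility of the length by 3, larger points for more spanning reads and the line marking equal shares. Most points lie at the ends of the line, and the Atp2a1 exon, at 29.2 and 6.55%, lies farthest from it.

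The shares of most exons differed little between libraries. Over the 1003 exons Pearson's r of the skip shares was 0.997, and over the 48 intermediate exons it was 0.953, given as a description since exons of 1 library share its depth and its RNA, and 18 of the intermediate exons overlapped another annotated internal exon. The absolute difference over the intermediate exons had a median of 5.54 percentage points and a highest value of 22.6 points, and 39 of the 48 differed by no more than 10 points. The skip share was higher in replicate 2 for 28 of the 48.

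Within the set the shortest exons were skipped most often. Of the 116 exons of 21 to 27 bases, 10.3% were intermediate and 16.4% mostly skipped. At 28 to 34 bases (158 exons) these shares were 5.70 and 8.23%, and at 35 to 42 bases (271 exons) 4.80 and 10.3%. At 43 to 50 bases (458 exons) they were 3.06 and 6.99%. In all 140 exons of the set, 14.0%, had a mean skip share of at least 10%, against 869 of the 18413 exons of 51 bases or more, 4.72%. The 98 internal exons of 3 to 20 bases went further, with 8.16% intermediate and 55.1% mostly skipped. At the limits of the rule, 6 of 8 exons of 20 bases and 7 of 15 exons of 21 bases had a skip share of 10% or more, and so had 8 of 61 exons of 50 bases and 9 of 88 exons of 51 bases. Of the exons whose lower library held 39 spanning reads 5 of 24 reached 10%, and of those with 40 reads 2 of 27.

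**Figure D2:**
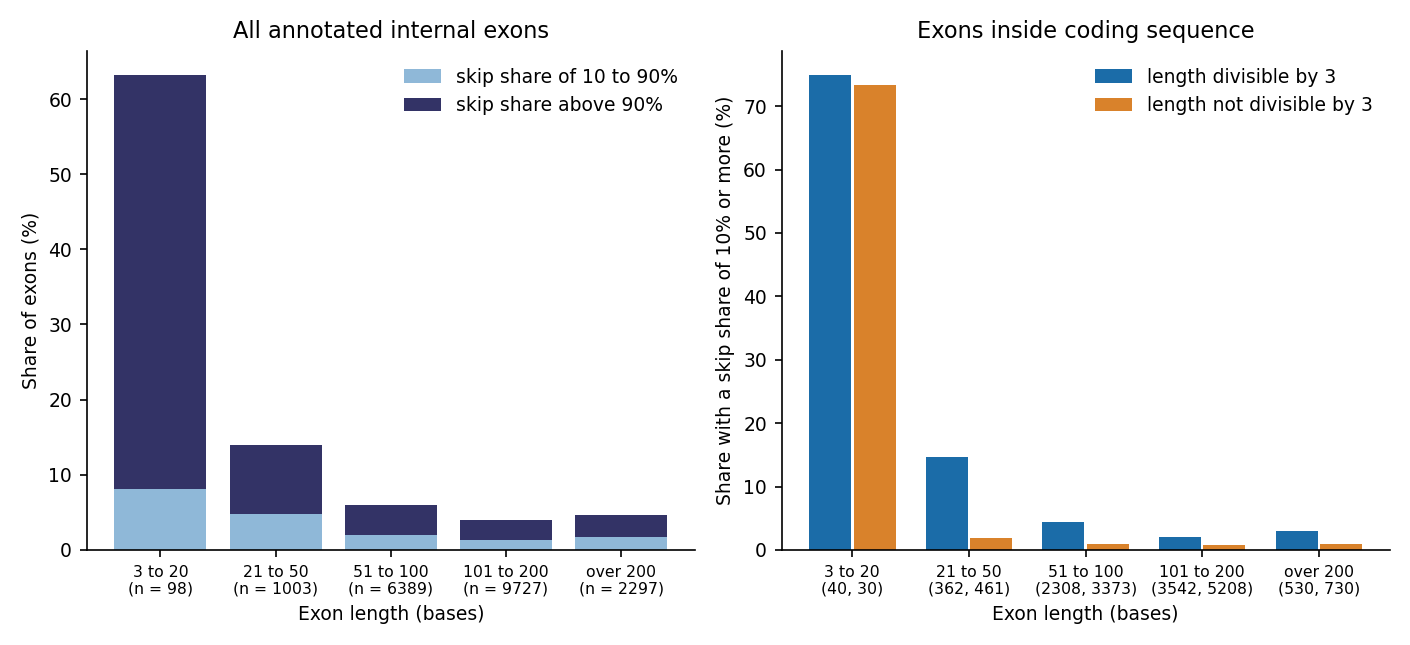
Percentage of exons (y axis) that were intermediate or mostly skipped, by exon length in bases (x axis, number of exons in brackets), over all exons in the left panel, and over exons inside coding sequence in the right panel, split by whether the length is divisible by 3 (numbers of exons for divisible, then not divisible). The shares fall with length up to 200 bases on the left, and in the right panel the divisible exons of 21 to 50 bases reach 14.6% and the others 1.95%, while exons of 3 to 20 bases reach 75 and 73.3%.

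Within the set, length divisible by 3 went with skipping inside coding sequence. Over the whole set 429 exons (42.8%) had such a length, against 39.7% of all internal exons. Of these 429, 81 (18.9%) had a skip share of at least 10%, against 59 of the 574 others (10.3%). An exon counted as inside coding sequence if an annotated coding model that is not a decay target held it whole. The split below thus depends on the annotation, and whether that annotation itself goes with length was not tested. Among the 823 exons inside coding sequence, 53 of the 362 with a length divisible by 3 (14.6%) and 9 of the 461 others (1.95%) had a skip share of at least 10%, and the mean skip shares were 11.4 and 1.76%. Coding exons of 51 bases or more went the same way on a smaller scale, with 188 of 6380 divisible exons (2.95%) and 82 of 9311 others (0.881%). Coding exons of 3 to 20 bases did not show the order, with 30 of 40 divisible exons (75%) and 22 of 30 others (73.3%), and mean skip shares of 70.7 and 71.8%. Outside coding sequence the order was not seen, with 28 of 67 divisible exons and 50 of 113 others. The 9 coding exons with another length and a skip share of at least 10% were those of Myl1 (28 and 25 bases), Cd47 (25 and 29 bases, sharing bases with each other), Sqstm1 (31 bases), Tomm5 (50 bases), Adhfe1 (41 bases), Oxr1 (28 bases) and Sirt2 (47 bases). In this comparison all exons entered with their class, also those with 0 exact reads in both libraries, and no test was made. Exons with 0 exact reads occurred on both sides, such as Sqstm1 and Oxr1 among the other lengths and Fads2 (36 bases) among the divisible ones.

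Position in the transcript also differed between the classes. In 5′ untranslated regions 17 of 34 exons were mostly skipped and 6 intermediate. Another 43 exons lay in models annotated as targets of nonsense-mediated decay and in no other coding model, though noncoding models could hold them too. Of these 43, 19 were mostly skipped and 0 intermediate. Of the 54 found solely in noncoding models 10 were mostly skipped and 9 intermediate. Of the 47 that were partly coding, holding a start or an end of the coding sequence, 9 were mostly skipped and 7 intermediate. Flanking introns had median lengths of 982 bases upstream and 868 downstream of the intermediate exons, 1296 and 1185 bases at the mostly skipped exons, and 743 and 689 bases at the rarely skipped exons. Median GC content was 51.2% in the intermediate, 46.6% in the mostly skipped and 50% in the rarely skipped exons.

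Skipping was nearly always annotated already. A model that skips the exon exists in the annotation for 47 of the 48 intermediate exons, 90 of the 92 mostly skipped exons and 147 of the 863 rarely skipped exons. Of the 719 exons with no such model, 3 had a skip share of at least 10%, namely the upstream of 2 Hmgn1 exons and a pair of Col6a1 exons. The reads that skipped intermediate exons used annotated introns in 96.9% of cases in replicate 1 and 97.3% in replicate 2, and those that skipped mostly skipped exons in 97.2 and 97.8%. For the few reads that skipped a rarely skipped exon the shares were 24.2 and 34.6%.

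Among signalling genes, Gnas held the most deeply read intermediate exon. Gnas encodes the stimulatory G protein alpha subunit that couples receptors such as the corticotropin receptor to adenylyl cyclase, and its 45-base exon (chr2:174336747-174336791) separates the long and short forms of that subunit. The exon was skipped in 448 of 1402 spanning reads of replicate 1, 32.0% (95% interval 29.5 to 34.5), and in 681 of 2007 reads of replicate 2, 33.9% (31.9 to 36.1). Intervals in these results are exact Clopper-Pearson intervals and cover counting error only, since reads are not shown to be independent molecules. The exact reads numbered 938 and 1325. The difference was −1.98 points (−5.16 to 1.24), within counting error, so the long form made up about the same majority of reads in both libraries. The skipping reads left the upstream exon at 1 splice site and joined the next exon at either of 2 annotated acceptors 3 bases apart, the outer ends of introns chr2:174334285-174341649 (280 and 423 reads) and chr2:174334285-174341652 (164 and 249 reads). A second Gnas exon, of 24 bases in a noncoding model, was skipped in 179 of 208 reads and 253 of 287 reads, 86.1 and 88.2%, and that value was 68.0% as a mean over annotated models alone. Only the Gnas reads that started upstream of this exon span it, a minority of those spanning the 45-base exon. Most that skipped it used introns beginning at chr2:174285478 (96 and 109 reads) or chr2:174327942 (72 and 128 reads). Which form of Gnas these reads encode was not examined.

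Exons of Gnb1, Mark3 and Snrk, genes outside the signalling list, had fewer reads. Gnb1, which encodes the G protein beta subunit 1, had a 49-base exon in its 5′ untranslated region that was skipped in 71 of 134 reads and 81 of 171 reads, 53.0 and 47.4%. In Mark3, a kinase that phosphorylates microtubule-associated proteins, the exon of 27 bases was skipped in 13 of 66 and 16 of 79 reads, 19.7 and 20.2%. Its exon of 45 bases was skipped in 9 of 66 and 15 of 79 reads, 13.6 and 19.0%. The intervals of these 3 exons overlapped between the libraries. Snrk, a kinase of the AMPK-related group, had a 50-base exon in its 5′ untranslated region skipped in 8 of 79 and 26 of 141 reads, 10.1 and 18.4%, with a difference of −8.31 points (−17.0 to 1.92).

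The genes of muscle contraction held 3 intermediate exons of 8 in the list of striated muscle contractile genes, and 1 of them was the exon that differed between the libraries. Atp2a1 encodes the fast-twitch calcium pump of the sarcoplasmic reticulum, and in skeletal muscle inclusion of this exon separates the adult form, which ends within it, from the neonatal form, which skips it. The Atp2a1 exon of 42 bases (chr7:126446545-126446586) holds the last 5 coding bases, stop codon included. It was skipped in 418 of 1433 spanning reads of replicate 1, 29.2% (26.8 to 31.6), and in 56 of 855 reads of replicate 2, 6.55% (4.99 to 8.42). The difference of 22.6 points (19.7 to 25.4) passed Fisher's exact test (two-sided, on the reads of these libraries, adjusted over all 19515 exons, adjusted p = 7e-39). The skipping intron, chr7:126446127-126446870, is annotated and carried 410 and 55 of these reads.

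That Atp2a1 call stood alone among the short exons. By the same test, with an adjusted p below 0.05 and at least 10 points, 1 of the 1003 exons was called (0.0997%), against 0.041% of all 19515 exons, and among intermediate exons 1 of 48, against 1.98% of the intermediate exons of any length. Of all exons, 0.0256% were called with more skipping in replicate 1, as Atp2a1 was, and 0.0154% with more in replicate 2. Skeletal muscle genes were higher in replicate 1 as well. The 8 skeletal muscle markers summed to 10541.8 CPM (counts scaled to the library total) in replicate 1 and 3639.2 CPM in replicate 2, and 7 of the 8 were higher in replicate 1. Of the myosin heavy chains, neonatal Myh8 had 83 reads in replicate 1 and 6 in replicate 2, adult fast Myh1 had 510 and 47, and adult fast Myh4, the exception, had 5 and 147. Atp2a1 itself had 2434.4 and 1118.9 CPM. The part of the muscle markers in the splicing difference was not tested, and in bulk RNA fewer cells of a type and less RNA per cell cannot be told apart. Most of the Atp2a1 reads lay on unannotated models that share an unannotated intron elsewhere in the gene, chr7:126462188-126462778. With annotated models alone too few reads remained for the exon to enter the test, and the call was lost.

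A second muscle gene, Myl1, showed alternative use of 2 coding exons. Myl1 encodes the alkali (essential) light chains of fast skeletal myosin, which arise as a long and a short form from 2 promoters of the gene. Its 28-base exon was skipped in 231 of 348 reads of replicate 1 and 142 of 220 of replicate 2, 66.4 and 64.5%. The 25-base exon was skipped in 119 of 348 and 87 of 220 reads, 34.2 and 39.6%. The shares of the exons thus came close to mirroring each other. Within single reads, the 25-base exon without the other was found in 212 of 348 reads of replicate 1 and 130 of 220 of replicate 2, and the 28-base exon without the other in 103 and 76 reads. Both exons together occurred in 6 and 2 reads, and neither in 16 and 11. The choice went with the initial exon: of the reads that began at the nearer initial exon 211 and 127 held the 25-base exon alone, and all that began at the farther one held the 28-base exon alone. Both lengths leave the same remainder on division by 3, as the sequences above show.

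In Myl6, the essential light chain of nonmuscle and smooth muscle myosin, the 45-base exon near the end of the coding sequence holds 29 coding bases. It was skipped in 180 of 276 reads of replicate 1 and 346 of 552 of replicate 2, 65.2 and 62.7%, with overlapping intervals (59.3 to 70.8 and 58.5 to 66.7). The exact reads numbered 95 and 199. Of the 4 exons of the list of actin and membrane skeleton genes this was the 1 intermediate exon. The list's other 3 were rarely skipped.

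The mitochondrial gene Atp5c1, which encodes the gamma subunit of ATP synthase, held a 37-base exon whose first 7 bases complete the coding sequence of the form that includes it. Its skipping was seen in 241 of 448 reads and 373 of 791 reads, 53.8% (49.0 to 58.5) in replicate 1 and 47.2% (43.6 to 50.7) in replicate 2. The difference of 6.64 points (0.845 to 12.4) did not pass the adjusted test (Fisher's exact test, unadjusted p = 0.029, adjusted p = 1). The forms were thus about equally frequent in both libraries. Of 8 exons of the mitochondrial list, 6 were rarely skipped, this one was intermediate, and the 33-base exon of Mff, a receptor for the fission machinery of mitochondria, was mostly skipped with 59 of 64 and 85 of 87 reads. Uqcrh, the hinge subunit of complex III, had its 21-base coding exon skipped in 12 of 242 and 20 of 512 reads, 4.96 and 3.91%. In that gene 9 and 18 of the skipping reads used 1 unannotated intron, chr4:116070025-116074902. Annotated models alone gave a share of 0, which was fixed in advance since no annotated model skips this exon.

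The 30-base exon of Acly, a gene outside the lists, was skipped in the majority of reads. Acly encodes ATP-citrate lyase, which makes cytosolic acetyl-CoA for fatty acid and cholesterol synthesis. The Acly exon was skipped in 318 of 525 reads of replicate 1, 60.6% (56.2 to 64.8), and in 492 of 707 of replicate 2, 69.6% (66.1 to 73.0). These intervals did not overlap, and besides Atp2a1 no other intermediate exon had intervals that did not. The difference of −9.02 points (−14.4 to −3.64) did not pass the test over all exons (Fisher's exact test, unadjusted p = 0.001, adjusted p = 1). Every skipping read used the annotated intron chr11:100498763-100504202, and no read altered the exon. In Osbpl9, a lipid transfer protein of the oxysterol-binding family, the 39-base exon was skipped in 16 of 63 and 35 of 109 reads, 25.4 and 32.1%. Taz, or tafazzin, which remodels cardiolipin, had a 36-base exon skipped in 29 of 53 and 58 of 94 reads, 54.7 and 61.7%, and the remaining reads were mostly altered (22 and 35 reads). In annotated models alone every spanning read skipped the Taz exon, 24 and 45 reads.

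Coding exons of several other genes were divided between forms in both libraries. The 42-base exon of Ndrg2, of the N-myc downstream-regulated family, was skipped in 90 of 229 and 89 of 208 reads, 39.3 and 42.8%. Wbp1l had its 48-base exon skipped in 31 of 70 and 40 of 88 reads, 44.3 and 45.5%, and Bnip2 its 36-base exon in 22 of 59 and 21 of 75 reads, 37.3 and 28.0%. For Tpd52l2 the 42-base exon was skipped more often than not, in 56 of 71 and 70 of 95 reads, 78.9 and 73.7%. All 4 lengths are divisible by 3, and all 4 pairs of intervals overlapped. Cd47, the surface protein that binds SIRPα on phagocytes, had a 25-base exon skipped in 70 of 87 and 104 of 117 reads, 80.5 and 88.9%. Mars, the methionyl-tRNA synthetase, had a 24-base exon skipped in 63 of 75 and 81 of 95 reads, 84.0 and 85.3%. Mgrn1, a ubiquitin ligase, had a 45-base exon that holds a stop codon skipped in 47 of 81 and 44 of 70 reads, 58.0 and 62.9%.

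For 4 more of the named intermediate exons nearly all reads that did not skip were altered. In Hnrnpa2b1, an RNA-binding protein that takes part in splicing, the 24-base exon had 0 exact reads in either library, 66 skipping and 119 altered reads in replicate 1, and 83 and 217 in replicate 2. Sqstm1, the autophagy receptor p62, likewise had 0 exact reads, with 21 skipping and 93 altered reads in replicate 1 and 42 and 105 in replicate 2. Agpat3, an acyltransferase of phospholipid synthesis, had 38 skipping and 51 altered reads in replicate 1, and 56 and 56 in replicate 2. In annotated models alone Agpat3 had 35 skipping and 2 altered reads in replicate 1, and 54 and 1 in replicate 2. All 3 exons lie inside a longer annotated exon, and so does the 21-base exon of Fastk, skipped in 127 of 172 and 185 of 227 reads with 41 altered reads in each library. Their skip shares are therefore shares of reads in which the short exon itself was rarely or never seen with its own splice sites.

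The remaining named intermediate exons were those of Tmem134 (45 bases, 39.7 and 45.1%) and Cldnd1 (44 bases, 88.2 and 86.2%), each from a noncoding model. The 19 intermediate exons outside the naming rule lay in 15 genes, with mean skip shares between 13.0 and 84.9% and 41 to 117 spanning reads in a library. Among them, named here after their values were seen, the noncoding host gene of small nucleolar RNAs Gas5 held 4. Its 41-base exon was skipped in 26 of 53 and 38 of 75 reads, 49.1 and 50.7%, whereas its exon of 28 bases had 17.0 and 13.3% and both of its exons of 43 bases had 14.8 and 13.0%.

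**Figure D3:**
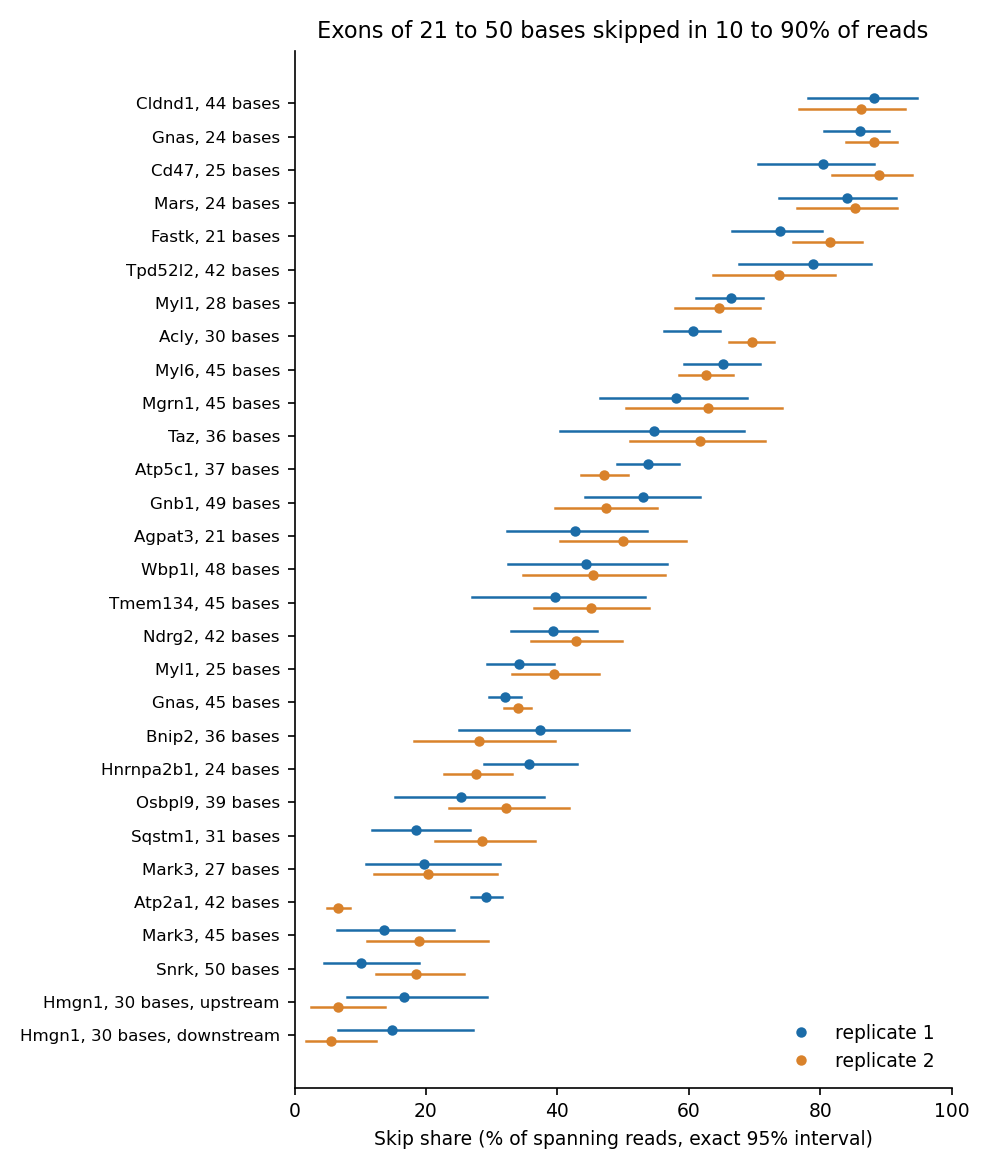
Skip share (x axis, %) of each of the 29 named intermediate exons (y axis, gene and exon length) in replicate 1 and replicate 2, with bars for the exact 95% Clopper-Pearson intervals. The intervals of the Atp2a1 and Acly exons do not overlap between libraries, and those of the other exons do.

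Several genes held more than 1 alternative short exon, and reads that spanned a pair showed which combinations occurred. In Hmgn1, a nucleosome-binding protein, both exons of 30 bases were present together in 43 of 54 reads of replicate 1 and 85 of 91 of replicate 2, and absent together in 8 and 5. Reads with 1 exon and not the other numbered 1 in each library. The Hmgn1 exons shared their skipping, 14.8 and 5.49% for the downstream exon and 16.7 and 6.59% for the upstream one. Annotated models alone gave 0 for each, which for the upstream exon was fixed in advance since no annotated model skips it. In Mark3 the exons of 27 and 45 bases were present together in 52 of 66 and 57 of 79 reads and absent together in 9 and 10. The 45-base exon alone was found in 4 and 6 reads, and the 27-base exon alone in 0 and 5.

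The Gnas pair behaved unevenly in the same reads, which were those that started upstream of the 24-base exon. The 24-base exon was found with the 45-base exon in 16 and 23 reads and without it in 1 and 2, while 149 and 207 reads held the 45-base exon alone and 29 and 46 held neither. In Cd47 no read held the 33-base exon while skipping the 25-base exon: 10 and 7 reads held both exons, 6 and 5 the 25-base exon alone, and 70 and 104 neither, with 1 read in each library in which an exon was altered. Gas5 showed the same nesting, since its 41-base exon occurred with the 28-base exon in 20 and 25 reads and alone in 0 and 0, while 17 and 28 reads held the 28-base exon alone. These are counts of reads within a library, and reads that share a start site or model are not independent.

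**Figure D4:**
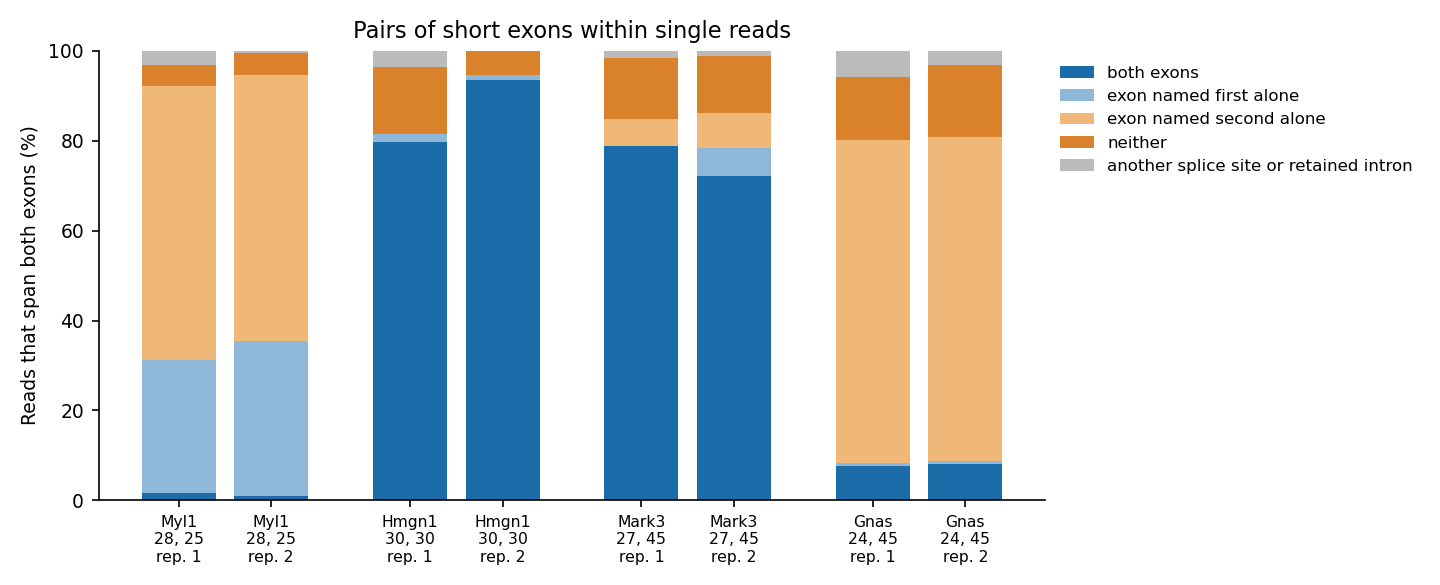
Percentage of reads spanning both exons of a pair (y axis) that held both, either or neither, for Myl1, Hmgn1, Mark3 and Gnas in replicate 1 (left bar of each pair) and replicate 2 (right bar), with the exon lengths in bases under each bar. Myl1 reads almost always held 1 exon and not the other, whereas Hmgn1 and Mark3 reads mostly held both.

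Mostly skipped exons were seldom seen at all. Of the 92, 38 had exact reads in both libraries and 41 had 0 exact reads in either. Of those with most reads, all but the exon of Aplp2 were nearly absent. Tmbim6, an endoplasmic reticulum membrane protein, had its 36-base exon in the 5′ untranslated region skipped in 457 of 457 and 576 of 580 reads. Eif5a, the translation factor that carries hypusine, had a 30-base exon of the 5′ untranslated region skipped in 350 of 351 and 543 of 546 reads. In Actg1, cytoplasmic gamma actin, the 45-base exon of a decay-target model was skipped in 381 of 384 and 484 of 487 reads, and the 28-base exon of the same kind in Reep5, which shapes tubular endoplasmic reticulum, in 271 of 271 and 483 of 483. Level with Reep5 in spanning reads of both libraries together, and named for that tie, was the 36-base coding exon of Fads2, a fatty acid desaturase, skipped in 303 of 303 and 451 of 451 reads. Aplp2, a relative of the amyloid precursor protein, kept its 36-base coding exon in 24 reads of each library, and the exon was skipped in 335 of 359 reads, 93.3% (90.2 to 95.7), and 416 of 440 reads, 94.5% (92.0 to 96.5). The 21-base exon of Tmed2, a cargo receptor of vesicles between endoplasmic reticulum and Golgi, was present in 10 of 221 and 1 of 272 reads.

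Of 5 exons of the endocytosis and vesicle traffic list 4 were mostly skipped. Dnm2, the ubiquitous dynamin that cuts vesicles from membranes, held its 30-base exon in 3 of 81 and 1 of 89 reads. Clta, clathrin light chain A, held its 36-base exon in 2 of 54 and 5 of 82 reads, and Bin1, which bends membranes, its 24-base exon in 4 of 74 and 3 of 54. The fourth was not coding: the 46-base exon of Vps29, a retromer subunit, lies in a decay-target model and had 0 exact reads in 58 and 95. The signalling list had 10 exons, of which 2 were intermediate and 2 mostly skipped: Ppp3ca, the catalytic subunit of calcineurin, held its 30-base exon in 13 of 85 and 3 of 68 reads, and Ptpra, a receptor tyrosine phosphatase, its 27-base exon in 2 of 53 and 6 of 83. In the motor and microtubule list 2 of 7 exons were mostly skipped, both of 21 bases and both in Dctn1, the large subunit of dynactin, skipped in 79 of 92 and 88 of 92 reads and in 82 of 87 and 86 of 89. The single exon of the chromatin and transcription list, in Smarcc2, was rarely skipped.

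Of 28 regulators of splicing in a further list, 17 had at least 5 reads in each library. Srrm4, which drives neuronal microexons, had 2 reads in replicate 1 and 0 in replicate 2, and its relative Srrm3 had 1 and 2. Ptbp1, which represses many alternative exons outside neurons, had 73 and 74 reads, and Qk, which acts in muscle and glia, 79 and 85. The regulators themselves held 4 exons of the set, of which 3 were rarely skipped. The exception was the 36-base exon of Mbnl2, a muscleblind protein, skipped in 41 of 44 and 63 of 64 reads. The relation of the regulators' levels to the exons was not tested.

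Genes that mark the adrenal gland held 4 short exons, and all were rarely skipped. The 47-base exons of the chromaffin granule proteins Chga and Chgb were skipped in 5 of 757 and 5 of 1154 reads and in 0 of 798 and 0 of 1093 reads. Dbh, which makes noradrenaline, had its 39-base exon skipped in 1 of 109 and 0 of 94 reads. The 46 bases annotated as an exon of Th, the rate-limiting enzyme of catecholamine synthesis, had 0 exact reads and, apart from 1 skipping read in replicate 2, lay in altered reads. All 13 adrenal markers had 5 reads or more in both libraries, with Cyp11a1, the side-chain cleavage enzyme, at 4019 and 6682 reads. Markers of other tissues were present too and differed between the libraries: 5 liver markers had 4554 and 956 reads, 6 brown fat markers 6053 and 11492, and 7 kidney markers 3 and 727, none of which held a short exon of the set.

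Among the rarely skipped exons those of the most abundant RNAs set narrow limits on skipping. The 33-base exon of Trf, transferrin, was skipped in 17 of 4060 and 0 of 572 reads, 0.419% (0.244 to 0.670) and 0% (up to 0.643). Hadhb, the beta subunit of the mitochondrial trifunctional protein of fatty acid oxidation, had its 48-base exon skipped in 2 of 1339 and 0 of 1785 reads and its 45-base exon in 1 of 1288 and 1 of 1732. In contrast, 109 rarely skipped exons had 0 exact reads. Among them were the Trf exons of 45 and 39 bases and the 21-base exons of Adh1 and Hadha. Both 39-base exons of Ftl1 and the 42-base exon of Actb were others. Each of these named exons lay inside a longer annotated exon. Nearly all their spanning reads were altered, and whether those reads held the longer exon was not examined. Over the whole set 156 exons had 0 exact reads, of which 124 lay inside a longer annotated exon.

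Collagen genes, taken up after their values were seen, held 52 of the short exons in 8 genes. Their triple helix repeats a tripeptide, and 39 of the 52 lengths were multiples of 9 and 47 multiples of 3, with 18 exons of 45 bases, 12 of 36 and 9 of 27. All but 2 of them were rarely skipped. The exceptions were the neighbouring 21-base exons of Col6a1, which encodes a chain of the microfibril collagen VI (chr10:76721088-76721108 and chr10:76721263-76721283). Both were skipped by 89 of 89 reads in replicate 1 and 82 of 82 in replicate 2, through an unannotated intron chr10:76721043-76721402. In all these reads the neighbouring exon on the left ran to 82 bases in place of the annotated 45. The extra 37 bases stand beside the 42 bases of the skipped pair, and whether alignment played a part was not tested.

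Beyond Atp2a1, no short exon was called between the libraries. Without the minimum of 10 points, 2 of the 1003 exons passed the adjusted test, against 0.0512% of all exons. The one besides Atp2a1 was the 45-base exon of a noncoding Rsrp1 model, skipped in 15 of 361 and 61 of 480 reads, 4.16 and 12.7% (Fisher's exact test, adjusted p = 0.033). At an unadjusted p below 0.05, 13 of the 1003 exons passed (1.30%), against 0.415% of all exons. An exon without a skipping read in either library cannot pass. Such exons made up 57.4% of the set and 77.4% of all exons, so these shares do not compare the size of library differences. A p that misses the threshold does not show equal shares: for the Hmgn1 exons the interval of the difference ran from −0.471 to 21.5 points and from −0.326 to 22.7 points, and for Sqstm1 from −20.0 to 0.354 points. After Atp2a1, the largest differences among intermediate exons, named after their values were seen, were those of Mrpl24 and Adhfe1. The 26-base Mrpl24 exon was skipped in 19 of 41 and 15 of 61 reads, a difference of 21.75 points (3.03 to 39.2). For the 41-base Adhfe1 exon, skipped in 4 of 51 and 19 of 75 reads, the difference was −17.5 points (−29.4 to −3.9). Neither passed the adjusted test.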

How the data were processed

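Long-read RNA sequencing of adrenal gland was measured in 2 libraries of 1 group. The authors deposited, for each library, raw counts of reads per transcript model with no normalization and a gene model annotation whose source column names TALON. The assembly was mm10 and the annotation GENCODE M21, per the submitters' processing notes. The aligner, like the platform, is not given in the sources used here. Models of a library were made without those of the other, and how reads were aligned at very short exons, which sets whether they are exact or altered, was not examined.

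Internal exons were taken from annotated models, and all 19515 that passed the minimum of 40 spanning reads were found in GENCODE M21 by coordinates. Reads of all spliced models of a gene entered. CPM is the count scaled to the 593165 and 772154 reads left after removing 13512 and 16500 spike-in reads, so that 0 reads allow 5.06 and 3.89 CPM (3 counts). Skipping against other spanning reads was compared between the libraries with Fisher's exact test (two-sided), which covers counting error of these libraries. Benjamini-Hochberg adjustment ran over 19515 exons, and exons were called at an adjusted p below 0.05 and 10 points. Of the 19515 exons 77.4% had no skipping read in either library and could not pass, yet they entered the adjustment. The test was checked on simulated data whose reads were drawn independently with a set share per exon, so the check covers counting error only. Differences have Newcombe intervals. Tools were Python 3.11.15, scipy 1.17.1, statsmodels 0.14.6, pandas 2.3.3 and matplotlib 3.10.9.

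Named exons are the 30 intermediate exons with most spanning reads, the 5 mostly and the 5 rarely skipped exons with most reads, the 5 shortest, the 5 with the largest altered share and those called, with 1 kept where exons overlap. Members and gene lists were chosen with earlier results of these data known. Alternatives changed the read minimum, the model classes and kinds of reads counted, overlapping exons, the call rule and the library left out. The genome sequence was not used, so introns and splice motifs are not shown.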

Additional observations from a re-analysis of the deposited data

How the results depend on the processing

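The read minimum set only which exons entered, since the skip share of an exon does not depend on it. All 48 intermediate exons therefore kept their class by construction at a minimum of 20. The same holds for the 13 of them that entered at 100. The kinds of models and reads counted moved exons between classes. With a minimum of 20 spanning reads (1863 exons) 105 exons were intermediate and 196 mostly skipped, 69 and 110 of them divisible by 3, with a mean skip share of 13.8%. With a minimum of 100 (308 exons) these were 13, 35, 8 and 20, with a mean of 13.6% and a median of 0.070%. With annotated models alone (708 exons) 23 were intermediate, 16 of them divisible by 3, 22 of the 23 shared with the 48, the mean was 11.7% and 0 short exons were called. Without exons that overlap another annotated internal exon (727 exons) 30 were intermediate and the mean was 13.7%. The mean was 11.9% both without incomplete splice matches and with splice sites required on both sides, and 14.1% over skipping and exact reads, where 37 of 814 exons were intermediate, 34 of them among the 48. Without a minimum difference 2 exons were called. Leaving out either library gave 52 to 53 intermediate exons (28 to 32 divisible by 3), 88 to 91 mostly skipped (49 to 53 divisible by 3), a mean of 11.5 to 11.6% and a median of 0, and 14.1 to 14.3% of short exons against 4.79% of longer ones with a share of at least 10%. The causes were not tested. Skip shares have no sign, so a change of direction was not possible for them. Depth limits the intermediate exons: the shallowest had 41 spanning reads in a library.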
